A study of Schmidtea mediterranea with 58 samples.

Results

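The regions described here are places in the genome of whole planarians (*Schmidtea mediterranea*, a flatworm that regenerates from adult stem cells) at which H3K4me3 was compared between *set1* RNAi and control worms. One region is 1 unique combination of scaffold, start and end in the table of that comparison, which gave 8633 regions on 4036 scaffolds from 12414 lines, out of 15840 regions in the 5 tables of the series that were read. *set1* RNAi worms (2 libraries) ate food with double-stranded RNA against *set1* over 6 days, and *unc* RNAi worms (2 libraries) are their control, for which the labels give no number of days. Both groups were snap-frozen whole worms. The labels give no strain, age or number of worms, and do not say whether the 2 libraries of a group came from separate worms, so the adjusted p-values below measure only the spread between libraries. The level of *set1* itself was not analysed here, so the knockdown is taken from the labels.

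Histone H3 trimethylated at lysine 4 (H3K4me3) sits around the starts of transcribed genes, where it is placed by Set1 and MLL enzymes working in a protein complex. In yeast the single enzyme Set1 carries out all of this methylation, whereas animals share the work between several enzymes. In planarians the dividing adult stem cells, called neoblasts, feed every tissue, and cell sorting collects them in a fraction called X1, while the fraction called Xins holds differentiated cells that irradiation spares. A whole worm mixes these cells, so that a change in the makeup of the worm and a change of the mark within its cells cannot be told apart in the values below.

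Each region carries a normalized read count for every library, scaled by the authors, and its change is given as the *set1* mean minus the *unc* mean of log2(normalized count + 1). The median region had normalized counts of 837 and 846 in the *set1* libraries, against 848 and 857 in the *unc* libraries. The counts were whole multiples of the worth of 1 read (within 0.0075) in 8610 regions, and the median region rested on 941 and 691 reads in the *set1* libraries, against 1186 and 669 reads in the *unc* libraries. The libraries of a group differed little. The SD of their log2 difference over regions was 0.06 in *set1* and also 0.06 in *unc*, and the mean squared difference was 0.749 of the counting error in *set1* and 0.784 in *unc*. The libraries of a group thus differed less than counting alone gives. The median standard error (SE) of the limma fit used below was 0.047, against 0.051 from counting alone. The SEs and adjusted p-values below are therefore probably too small. The authors listed regions on these same libraries, so all calls below describe listed regions and are not a fresh test of the genome. The 2 libraries of a group were named in no order that links them to a replicate number, and are called first-listed and second-listed.

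H3K4me3 after *set1* RNAi moved in both directions and by small amounts. The mark was lower at 4169 regions and higher at 4464, with a median log2 change of 0.01 and quartiles of -0.11 and 0.08. In 4732 regions (54.8%) the change was smaller than 0.1. Both *set1* libraries lay below both *unc* libraries at 3554 regions (41.2% of all) and above both at 3157 (36.6%), and the libraries overlapped at the other 1922. By limma with Benjamini-Hochberg adjustment over the 8633 regions, 3530 (40.9%) had an adjusted p below 0.05, of which 2230 were lower (25.8% of all) and 1300 higher (15.1% of all). With 1 library left out the calls numbered 2000 to 2533, with 1429 to 1724 lower and 571 to 809 higher, the fewest of each without the second-listed *unc* library. An exact permutation test of 2 against 2 libraries cannot give a two-sided p below 0.333. With each library centred on its median the calls were 1862 lower and 1743 higher, so the excess of falls over rises among called regions was smaller under that scaling. With 1 library left out the median change lay between -0.0048 and 0.0042, so it had no settled sign.

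By read count, large changes were falls. The mark was lower by 0.5 or more at 22 regions and higher by 0.5 or more at 0, and the libraries of the 2 groups did not overlap in any of the 22. A change of at least 0.25 in size was a fall at 505 regions and a rise at 73. The 22 largest falls were long regions (median 1600 bases, against 1200 over all), and 17 of them held a gene start (77.3%, against 66.8% of all regions). Enrichment over input, a ratio deposited as a pooled value per group, was also lower after *set1* RNAi in all 22. Its median over them was 7.32 in *set1* against 9.63 in *unc*. At the 73 rises of 0.25 or more its median was 13.2 in *set1* against 9.26 in *unc*, and it was lower after *set1* RNAi at 1 of them. The excess of large falls therefore refers to read counts and not to enrichment.

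**Figure D1:**
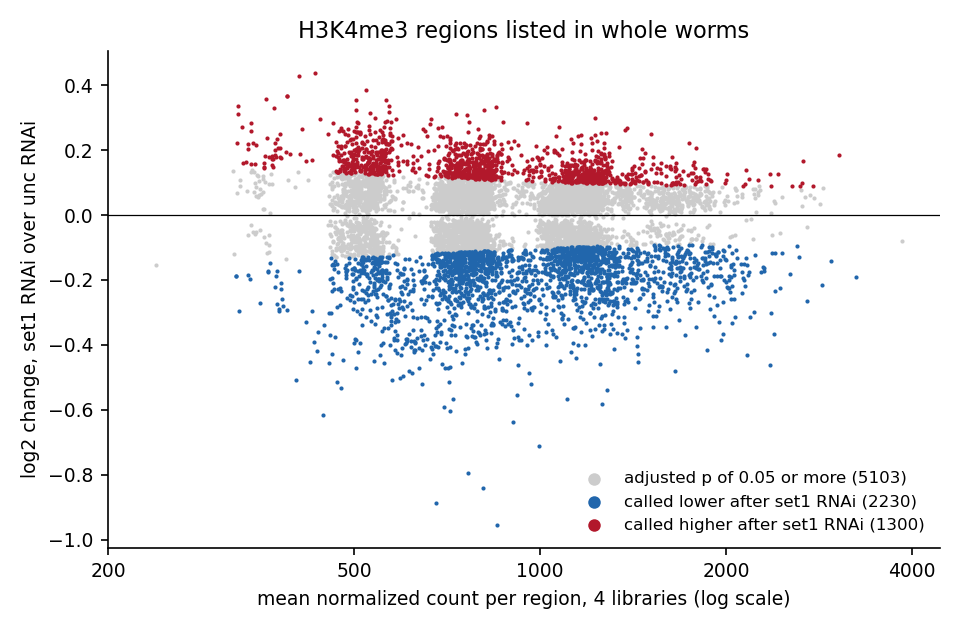
Each point is 1 of the 8633 regions, with the mean normalized count of the 4 libraries on the x axis (log scale) and the log2 change of *set1* RNAi over *unc* RNAi on the y axis. The 2230 regions called lower reach -0.96, while the 1300 called higher end at 0.44.

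The deepest falls are named by gene identifier and scaffold, since the table does not pair identifiers with gene names and their functions were not analysed here. The region of SMED30022325.1 on scaffold v31.005936 (21201 to 23100) had normalized counts of 555 and 605 in *set1* worms, against 1118 and 1131 in *unc* worms (limma log2 change -0.96, SE 0.05, Benjamini-Hochberg adjusted p = 8.44e-85). On scaffold v31.009816 (301 to 2000), a region with the same identifier without its suffix, SMED30022325, had 470 and 483 in *set1* worms, against 875 and 889 in *unc* worms (log2 change -0.89). The shared identifier makes it uncertain whether these are separate genes or copies between which reads were divided.

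The next regions in size also held a gene start. SMED30016470 on v31.010316 (15601 to 17500) had 566 and 594 in *set1* worms, against 1016 and 1062 in *unc* worms (log2 change -0.84, SE 0.05). SMED30005554 on v31.002905 (44401 to 45900) had 587 and 528, against 926 and 1011 (log2 change -0.80, SE 0.05). In all of them the higher *set1* library stayed well under the lower *unc* library. The region of SMED30027707 and SMED30026464 on v31.002441 (49001 to 50700) had 778 and 733 in *set1* worms, against 1236 and 1241 in *unc* worms (log2 change -0.71, SE 0.04). SMED30009035 on v31.000434 (8001 to 9500) had 671 and 747, against 1131 and 1073 (log2 change -0.64, SE 0.05). The region of SMED30033147 and SMED30011144 on v31.017647 (7201 to 9000) had 568 and 565, against 818 and 907 (log2 change -0.60, SE 0.05). An exception in place was v31.017035 (1201 to 2200), whose nearest start, of SMED30003769, lay 990 bases away. Its counts were 362 and 340 in *set1* worms, against 553 and 524 in *unc* worms (log2 change -0.62, SE 0.06). All 8 of these regions kept their direction with each library left out and passed the limma threshold under every other limma setting tried. They were picked for large falls, limma calls and separated libraries in these same data, which favoured this outcome.

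By read count, the largest rises were shallower than the largest falls and rested on fewer reads. On v31.007086 (1 to 1400), at the edge of its scaffold and 8851 bases from the nearest start (SMED30032302), the counts were 504 and 487 in *set1* worms, against 335 and 400 in *unc* worms (log2 change 0.44, SE 0.06). On v31.003955 (19301 to 20300), 3 bases from the start of SMED30019190, they were 449 and 486, against 370 and 326 (log2 change 0.43, SE 0.06). The enrichment over input of this region was 31.6 in *set1* against 16.2 in *unc*. The other 4 of the 6 most raised regions belonged to SMED30024575, SMED30011744, SMED30027566 and SMED30001046, with log2 changes of 0.38, 0.37, 0.37 and 0.36. Their lowest *set1* count was 387. Their libraries did not overlap with those of *unc* worms, which was a condition for naming them. SMED30024575 on v31.001384 (75001 to 76700) had 584 and 598 in *set1* worms, against 422 and 486 in *unc* worms. SMED30027566 on v31.006413 (6901 to 8000), 341 bases from the start, had 424 and 453, against 358 and 322.

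The 3 called falls with the largest counts were small. They were at SMED30027083.4 on v31.002879 (41701 to 43800), with 3144 and 2915 in *set1* worms against 3373 and 3543 in *unc* worms (log2 change -0.19, SE 0.04), at SMED30015265 on v31.001672 (15401 to 18400), with 2712 and 2923 against 3113 and 3102 (log2 change -0.14, SE 0.04), and at SMED30025338 on v31.001160 (2301 to 5000), with 2641 and 2652 against 3115 and 3035 (log2 change -0.22, SE 0.04). The fall at SMED30015265 did not pass the threshold without the first-listed *set1* library (log2 change -0.09). At these 3 regions the pooled enrichment over input was higher in *set1* than in *unc*, with 8.06 against 7.37 at the first. Their direction therefore depended on whether reads or enrichment over input were compared.

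**Figure D2:**
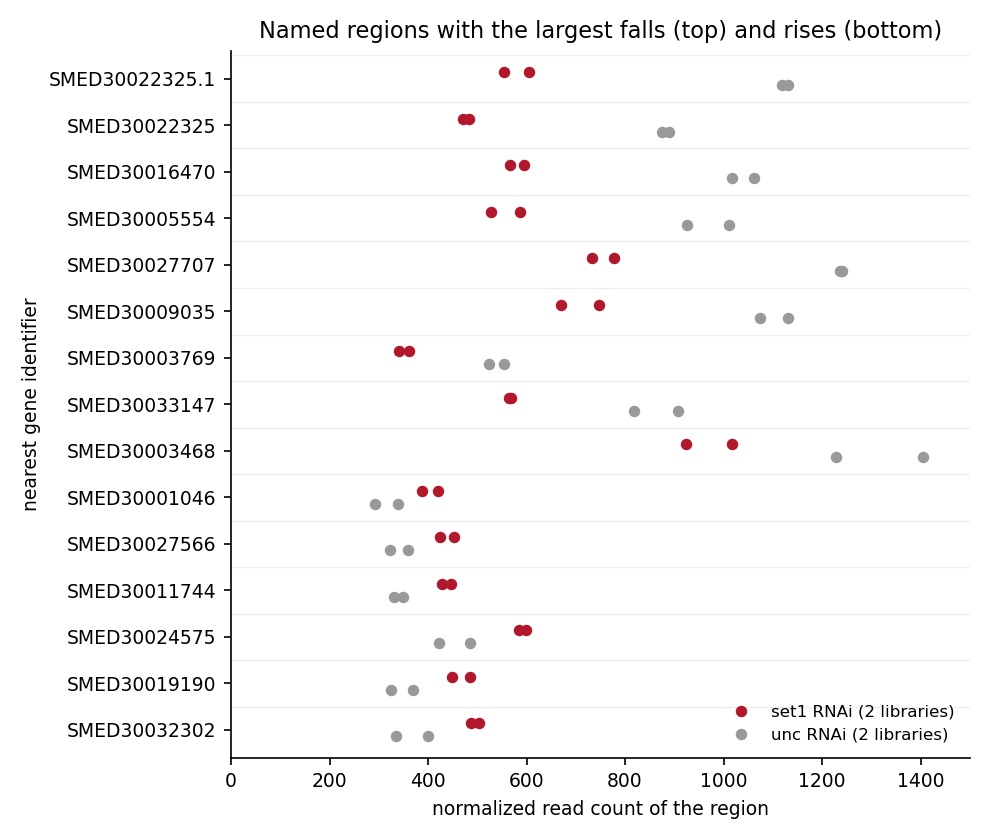
Normalized read count of the region (x axis) in each library for the most lowered (upper 9) and most raised (lower 6) of the named regions, labelled by the nearest gene identifier, with 2 *set1* RNAi points above 2 *unc* RNAi points per region. The ninth, SMED30003468, is named for its fall in X1 cells. The groups are apart in all 15 regions, and every region with a fall larger than 0.6 holds a higher control count than any of the raised regions.

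The direction of change followed the distance to the nearest gene start. Of the 5768 regions with a gene start inside them, 1782 were lower (30.9%), with a median log2 change of 0.04. Of the 2287 regions whose nearest start lay 1 to 600 bases outside, 2107 were lower (92.1%), with a median of -0.10. Over all regions the share was 48.3%. The mark after *set1* RNAi was thus relatively higher over gene starts and lower beside them, and the limit of 600 bases was chosen after the values were seen.

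The share of lower regions was 92.9% of 1214 at 1 to 200 bases from the start and 91.2% of 1073 at 201 to 600 bases. Further out the pattern ended, with 45.6% lower of 136 regions at 601 to 1000 bases and 49.3% of 442 beyond 1000 bases. In steps of 100 bases, 92.2% of the 500 regions at 1 to 100 bases were lower (median -0.08), 89.0% of the 154 at 401 to 500 bases (median -0.14) and 69.9% of the 83 at 501 to 600 bases (median -0.12), so the share dropped before the limit of 600 bases. The table gives distances without a sign, so whether a region lay upstream or within the gene was not analysed here.

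Library separation and the limma calls showed the same order. With the start 1 to 600 bases away, both *set1* libraries were below both *unc* libraries at 1772 regions (77.5%) and above both at 122 (5.33%), against shares over all regions of 41.2% and 36.6%. With the start inside, the numbers were 1550 (26.9%) and 2818 (48.9%). By limma 1038 regions beside starts were called lower (45.4%, against 25.8% of all regions) and 48 higher (2.10%, against 15.1%), whereas over starts 1042 were called lower (18.1%) and 1165 higher (20.2%).

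No single library made this pattern. Beside starts, each *set1* library was lower than each *unc* library at 87.6% to 89.6% of regions in the 4 possible pairings. Over starts the 4 shares were 34.5% to 37.1%. Between libraries of the same group the split was near even, with the first-listed *set1* library below the second-listed at 49.8% of regions beside starts and 52.3% over starts, and the first-listed *unc* library below the second-listed at 55.3% and 50.8%.

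The split was also present at matched length and signal. Among regions of exactly 1000 bases, 19.1% of the 1159 over starts were lower, against 92.0% of the 1066 beside them. In the fifth of regions with the least control signal per kilobase, 21.1% were lower over starts and 70.4% beside them, and in the fifth with the most, 34.1% and 97.0%. Within the 11 runs of scaffolds with at least 100 regions, between which the worth of 1 read differed slightly, the share lower was 28.5% to 40.4% over starts and 81.2% to 97.8% beside them. Regions that overlap no other listed region gave 33.9% of 2330 over starts and 85.1% of 570 beside them.

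By enrichment over input the same order held around another zero. The pooled enrichment was lower after *set1* RNAi at 1775 of the 8633 regions (20.6%) and its median was 13.4 in *set1* against 11.9 in *unc*. Beside starts it was lower at 34.7% of regions and over starts at 14.8%. A fall in read count was thus a fall in enrichment in 36.2% of the lowered regions, and statements on lower and higher here refer to the authors' scaling of read counts. With 1 pooled value per group, no spread can be given for enrichment.

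**Figure D3:**
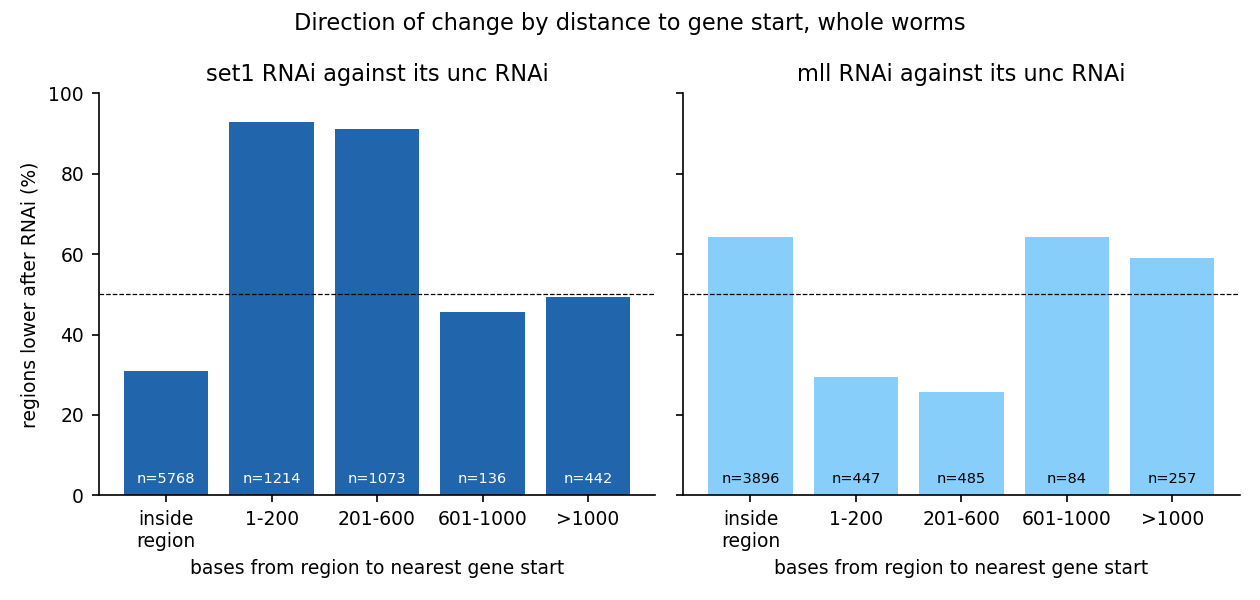
Share of regions that were lower after RNAi (y axis, percent) by the distance from the region to the nearest gene start (x axis, bases), for *set1* RNAi and, beside it, *mll* RNAi, each against its own *unc* RNAi in whole worms (dashed line, 50%). The *set1* bars stand at 30.9% with the start inside and above 90% in the classes of 1 to 200 and 201 to 600 bases, and the *mll* bars for the same classes stand at 64.3% and below 30%.

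The same split was visible between overlapping neighbours. Overlapping neighbours formed 2767 pairs, of which 2741 went in opposite directions. How the listing joined windows of 1 direction is not given in the sources used here, so the share of opposite pairs describes the listed regions only, and the members of a pair share the reads of their overlap (median 600 bases). In 1573 pairs only the higher region held it and in 79 only the lower region did. Both held a start in 900 pairs, and neither in 189. Among the 301 pairs in which limma called both members, the numbers were 196 and 6. The lower member lay to the right of the higher one on the scaffold in 789 of the 1573 pairs. There were also 35 triplets in the order lower, higher, lower, in 33 of which the middle region held a start, and 11 in the order higher, lower, higher. By gene identifier, 248 genes had a called rise over the start together with a called fall within 600 bases, and 17 genes had the reverse. The first were 19.0% of the 1303 genes with a called fall beside the start. The second were 13.2% of the 129 genes with a called rise there. Of all 6683 gene identifiers within 1000 bases of a region, 1255 had a called rise over the start and 1156 a called fall there. The 19.0% was thus near the share of all identifiers with a called rise over the start, and the 13.2% was below the share with a called fall there. The 248 and 17 genes mainly follow how many genes were called beside starts, 1303 against 129. They are not read as a split within genes. A called fall at both places occurred at 8 genes.

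Examples without shared reads come from the pairs with the largest opposite changes. At SMED30010680 on v31.012641 the region over the start (1801 to 2800) had counts of 361 and 362 in *set1* worms, against 296 and 277 in *unc* worms (log2 change 0.34, SE 0.06). Beside it, 259 bases from the start, the region from 3001 to 5300 had 2080 and 1891 in *set1* worms, against 2704 and 2764 in *unc* worms (log2 change -0.46, SE 0.04). Here the greater part of the signal lay beside the annotated start, in the region that fell.

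SMED30002574 on v31.002259 rose over the start (30501 to 31500) to 735 and 735 in *set1* worms, against 588 and 608 in *unc* worms (log2 change 0.30, SE 0.05), and fell 433 bases away (29301 to 30300) to 557 and 544, against 720 and 751 (log2 change -0.42, SE 0.05). SMED30001877 on v31.007761 rose over the start (2001 to 3100) to 852 and 837, against 721 and 665 (log2 change 0.29, SE 0.05), and fell 806 bases away (901 to 1900) to 384 and 405, against 510 and 488 (log2 change -0.34, SE 0.06). In these pairs no library crossed to the other group's side, and all 6 changes kept their direction with each library left out in turn. The regions were picked as called regions with large opposite changes in these same libraries, which favoured both results.

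**Figure D4:**
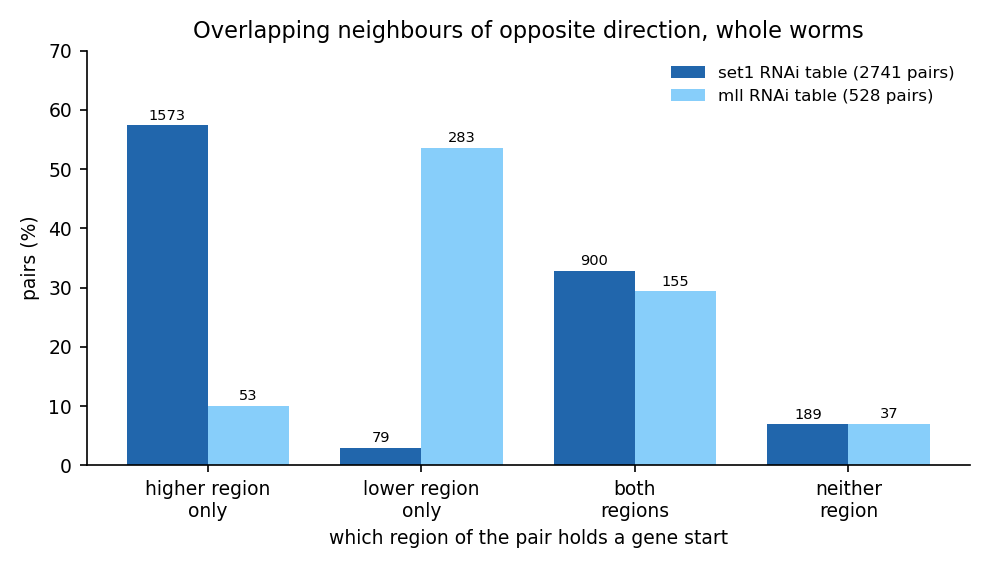
Share of overlapping neighbours of opposite direction (y axis, percent) by which region of the pair holds a gene start, in the *set1* RNAi table (2741 pairs) and the *mll* RNAi table (528 pairs) of whole worms, with the number of pairs above each bar. In the *set1* table the higher region alone holds the start in 1573 pairs, and in the *mll* table the lower region alone holds it in 283.

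Knockdown of *mll*, named after another family of H3K4 methyltransferases, gave the opposite arrangement in whole worms. Those worms were fed for 9 days and were compared with *unc* libraries of their own, and the tables were normalized separately, so the values stand side by side and the difference was not tested. With the start inside, 30.9% of *set1* regions and 64.3% of 3896 *mll* regions were lower. At 1 to 600 bases the shares were 92.1% for *set1* and 27.6% of 932 regions for *mll*. By pooled enrichment over input 72.4% of *mll* regions over starts and 56.5% of those beside starts were lower. For *set1* these shares were 14.8% and 34.7%. The direction beside starts thus turned with the measure for both knockdowns, while the order of the 2 places stayed opposite between them. Overlapping neighbours in which only the higher region held the start made up 57.4% of opposite pairs for *set1* and 10.0% for *mll*. In 7265 pairs of overlapping *set1* and *mll* regions 48.3% went the same way, and where the overlap covered at least 75% of the shorter region 40.0% of 5346 did. Where it covered under 50%, 596 of 749 pairs did (79.6%). At the deepest *set1* falls the mark was mostly slightly higher in *mll* worms than in their controls. The log2 changes were 0.17 at SMED30022325.1 and 0.20 at SMED30005554. Of the 15 regions lower by 0.5 or more that overlapped an *mll* region, 12 were higher there. At falls of 0.25 to 0.5 the number was 247 of 385, at falls of 0.1 to 0.25 it was 766 of 1485 and at smaller falls 561 of 1276. At rises under 0.1 it was 922 of 2220, at rises of 0.1 to 0.25 333 of 972 and at larger rises 13 of 41. These numbers use the *mll* region with the largest overlap. Over all 7265 pairs, which count a region once per overlap, the *mll* region was higher in 3299. These values are read counts, and enrichment in *mll* worms was not compared at these regions. At SMED30027566, one of the raised regions, *mll* RNAi had counts of 361 and 352, against 517 and 532 in its controls (log2 change -0.56).

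The size of the whole-worm fall went with overlap with regions that fell in sorted X1 cells. The *set1* table of X1 cells lists 554 regions from other libraries, of which 480 (86.6%) overlapped a whole-worm region, and 702 of the 8633 whole-worm regions (8.13%) overlapped an X1 region. The share was 18 of 22 (81.8%) among regions lower by 0.5 or more, 152 of 483 (31.5%) at 0.25 to 0.5 lower and 245 of 1907 (12.8%) at 0.1 to 0.25 lower. It was 54 of 1757 (3.07%) for smaller falls, 178 of 2975 (5.98%) for rises under 0.1, 55 of 1416 (3.88%) for rises of 0.1 to 0.25, and 0 of 73 for rises of 0.25 or more.

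The direction of the whole-worm change differed with how far the regions coincided. In 702 of the 703 overlapping pairs the X1 region was lower, so almost only the whole-worm direction could vary. Where the overlap covered 75% or more of the shorter region, 405 of 416 whole-worm regions were lower (97.4%), with a median log2 change of -0.22 in whole worms and -0.86 in X1 cells. Where it covered under 50%, 16 of 199 were lower (8.04%), and 86.4% of those 199 held a gene start. At regions beside starts that overlapped a lowered X1 region, 210 of 215 pairs were lower (97.7%, against 92.1% of all regions beside starts). Over starts the number was 232 of 444 (52.3%, against 30.9%), and 228 of 272 (83.8%) where the overlap was at least 50%.

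The named falls show the 2 materials together. At SMED30022325.1 the X1 counts were 65.2 and 57.5 in *set1* cells, against 176 and 204 in *unc* cells (log2 change -1.61), and at SMED30022325 they were 33.1 and 52.3, against 186 and 148 (log2 change -1.97). At SMED30016470 they were 38.3 and 30.4, against 105 and 112 (log2 change -1.64). At all 3 the log2 change was larger in size in X1 cells than in whole worms, in tables normalized separately, and the difference was not tested. These 3 were among the regions picked for the deepest X1 falls, so the choice itself favoured this order. The X1 regions that overlapped whole-worm regions had a median log2 change of -0.86. The remaining region of the 4 with the deepest X1 falls was SMED30003468 on v31.004453 (11201 to 13100), which had 923 and 1017 in *set1* worms, against 1229 and 1406 in *unc* worms (log2 change -0.44, SE 0.04), while its X1 counts were 27.0 and 32.6 in *set1* cells, against 86.9 and 109 in *unc* cells (log2 change -1.68). At SMED30027707 the log2 changes were closer, at -0.71 in whole worms and -0.79 in X1 cells.

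**Figure D5:**
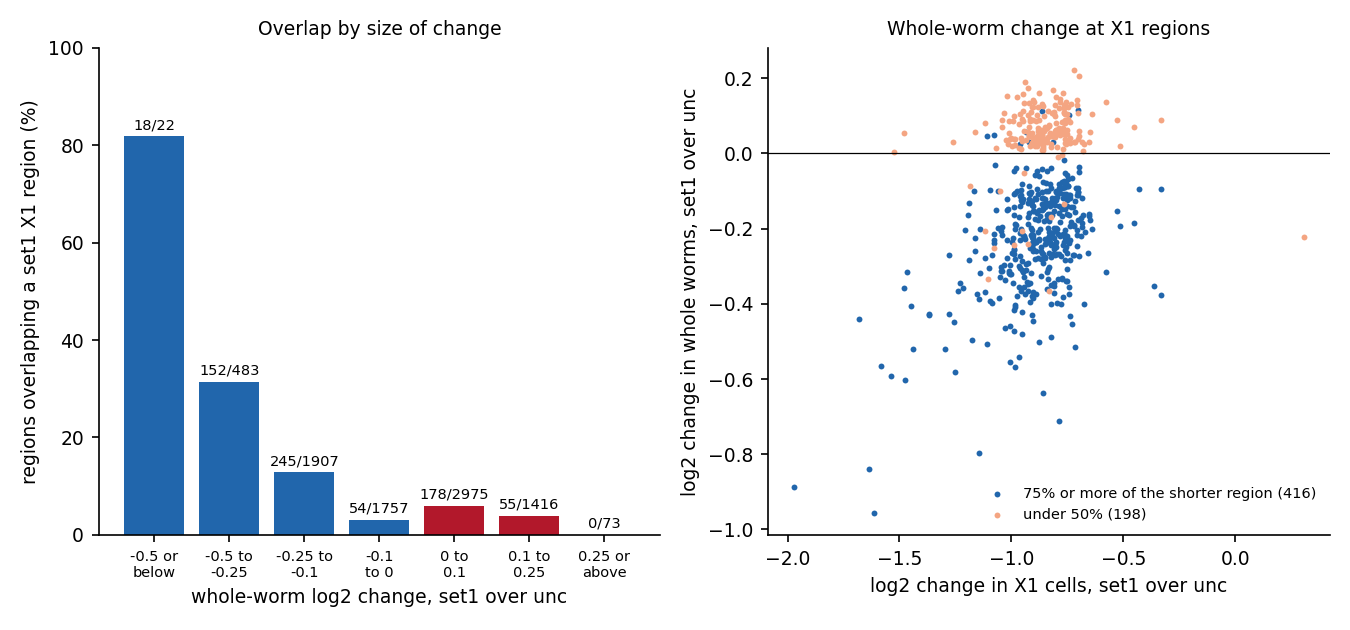
Left, share of whole-worm regions that overlap a region of the *set1* X1 table (y axis, percent) by the whole-worm log2 change (x axis), with the numbers above the bars, falling from 18 of 22 to 0 of 73. Right, log2 change in whole worms (y axis) against that in the overlapping X1 region (x axis), each *set1* over *unc* RNAi, for overlaps of 75% or more of the shorter region, which are mostly below 0, and of under 50%, which are mostly above 0.

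In Xins cells the *set1* table lists 106 regions, all of them lower, of which 103 overlapped a whole-worm region. Of the 166 overlapping pairs 55.4% were lower in whole worms, and 68.0% of the 97 pairs with an overlap of 75% or more. By place, 48 of 49 pairs beside starts (98.0%) were lower in whole worms, against 37 of 105 over starts (35.2%), beside 92.1% and 30.9% of all regions at these places. SMED30005554 and SMED30027707 were also lowered in Xins, with log2 changes of -1.55 and -1.27.

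The regions that differ between untreated X1 and Xins cells were compared last, under the reading that X1, named first, is the numerator of that table, which its header does not state and which was read only in part. At 818 pairs in which that region was higher in the first-named cells, 60.1% of whole-worm regions were lower (median log2 change -0.07), and at 331 pairs in which it was lower in them, 48.0% were (median 0.01). With overlaps of at least 50% of the shorter region the shares were 86.4% of 522 pairs and 36.9% of 255. The order was the same within places. Over starts the shares at these overlaps were 70.3% and 28.6%, and beside starts they were 99.3% of 278 and 84.4% of 32. Spearman's rho between the change in *set1* whole worms and the X1 to Xins difference, over regions that share libraries and are not replicates, was -0.14 across all 1149 pairs, -0.48 across the 485 with an overlap of 75% or more and 0.23 across the 372 with one of under 50%. With an overlap of at least 50% it was 0.09 among regions higher in the first-named cells and -0.02 among those lower in them.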

How the data were processed

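The authors' processing notes name CASAVA 1.8.2, Bowtie and MACS2, and the authors made the tables with diffReps, which scans the genome in windows. Its settings and the genome build are not given in the sources used here. The deposited tables hold normalized read counts (signal scaled by the authors, 2 libraries per cell), an enrichment over input (a ratio, pooled per group by the authors), and the authors' log2 fold changes and p-values, which were not used. Tables of *mll* RNAi in X1 and Xins were not used. Cells were divided at the semicolon, and regions were fitted with limma 3.58.1 (R 4.3.3; log2(count + 1), trend on the mean, Benjamini-Hochberg threshold 0.05), checked on simulated data. The recovered whole reads served only to describe depth and counting error. Overlaps were counted from 1 base, within scaffolds, in Python 3.11.15 with pandas 2.3.3 and scipy 1.17.1. Places outside the listed regions were not analysed here.

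Members and lists were chosen with earlier results of these data known. Named regions were the 8 most lowered and 6 most raised called regions with separated libraries and a mean count of at least 20, the 4 called falls with the deepest overlapping X1 fall, the 3 called falls with the largest counts, and the 3 pairs of called regions of 1 gene identifier with the largest opposite changes. Alternatives were pseudocounts of 0.5 and 5, a minimum mean count of 100, no trend, centred libraries, 1 factor per library over all scaffolds, each library left out, counting error, and other overlap rules.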

Additional observations from a re-analysis of the deposited data

Results flagged for a closer look

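At 5 places a whole-worm region was higher in both *set1* libraries than in both *unc* libraries, while the *set1* region that coincided with it in X1 cells (75% or more of the shorter region) was lower in both libraries. The largest whole-worm rise among them was at SMED30011390.1 on v31.023170 (2601 to 4100), with counts of 857 and 824 in *set1* worms, against 791 and 760 in *unc* worms (log2 change 0.12), and a log2 change of -0.70 in X1 cells. Of the 416 coinciding pairs of whole worms and X1 cells these were 1.20%.

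The same opposition to Xins cells occurred at 20 places, of 97 coinciding pairs (20.6%). All listed Xins regions and all but 1 of the listed X1 regions were lower, so both shares depend on the whole-worm direction. Over all regions 36.6% had both *set1* libraries above both *unc* libraries. At SMED30000078 on v31.003246 (43501 to 45200) the counts were 1324 and 1332 in *set1* worms, against 1190 and 1167 in *unc* worms (log2 change 0.17), with a log2 change of -1.11 in Xins cells. These places were picked because all libraries moved in opposite ways in the 2 materials, whose tables were normalized separately, and the difference itself was not tested.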

How the results depend on the processing

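No paired analysis was possible because the values carry no replicate numbers. The count of called regions was 3151 (2051 lower, 1100 higher) by counting error alone and 3530 with either pseudocount and with the minimum mean of 100, which removed no region. Leaving out each library gave 2000 to 2533 called regions, 1429 to 1724 lower and 571 to 809 higher. The lowest counts came without the second-listed *unc* library, and the calls fell with fewer samples in the fit. Separated libraries then numbered 3877 to 3944 lower and 3704 to 3819 higher, and the median change lay between -0.0048 and 0.0042. The share lower over starts was 32.2% to 36.0% with each library left out, 33.9% without overlapping regions and 47.2% among called regions. Beside starts (1 to 600 bases) it was 89.4% to 91.6%, 85.1% and 95.6%, and 90.9% with centred libraries. Pairs with an *mll* region in the same direction numbered 1423 among called regions (3506 of 7265 among all). At regions higher in the first-named of X1 and Xins, the median whole-worm change was -0.12 with at least 50% overlap and -0.16 among called regions. At those lower in it, it was 0.04 with at least 50% overlap and -0.10 among called regions, where it turned, and the cause was not tested. All 24 named regions passed with pseudocounts of 0.5 and 5, without the trend, with centred libraries and with 1 factor per library over all scaffolds. Without the first-listed *set1* library the log2 change at SMED30015265 was -0.09. With 2 libraries a group and about 1000 reads a region, changes under about 0.1 were mostly not callable.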

Other observations

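The table does not list regions evenly over signal. Among the 2417 regions of exactly 1000 bases, 920 had a mean normalized count of 450 to 600 and 1106 one of 650 to 850, while 24 lay between 600 and 650 and 4 between 850 and 950. A further 246 regions lay between 950 and 1200. In the *mll* whole-worm table, 233 of 1403 such regions lay between 600 and 650 and 140 between 850 and 950. Regions at some signal levels were thus rarely listed in the *set1* table, and counts of listed regions do not estimate how much of the genome changed.

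Regions longer than 2000 bases were mostly lower after *set1* RNAi (71.4% of 112), also where they held a start (67.7% of 99).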
